A study of Homo sapiens with 6 samples.

Results

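The expression of solute carrier genes was compared between 2 stably transduced forms of HCT116, one labelled as overexpressing miR-196b and the other carrying an empty vector. The sample titles spell the treatment miR1966OE and, like the cell line field, the line HTC116, while the genotype field reads miR-196b and the growth text HCT116, and the names of the genotype field and growth text are used here. HCT116 is an established human colorectal carcinoma line, and both forms were grown in the same medium. There were 3 arrays of labelled cells and 3 of empty-vector cells, hybridised with biotin-labelled total RNA. The replicates are called biological, with no word on separate transductions or clones, so the p-values reflect the spread among these samples, which may be technical, and precision is limited by the number of arrays. The genes were taken by name, as every probe set whose platform symbol reads SLC, a family number, A and a member number. This gave 17 of 14884 named genes. Each of the 17 had 1 probe set, so taking the brightest probe set of a gene changed nothing among them. All 17 entered the fit with no filter on low values. A further 37519 probe sets of the array have no gene symbol here. Of 14 widely studied carriers listed for comparison, SLC2A1 and SLC7A5 among them, 0 were named, and they were not analysed here.

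Solute carriers are membrane proteins that move sugars, amino acids, ions, vitamins and metabolites across the plasma membrane or the membranes of organelles. They work as facilitators, which let a solute run down its gradient, or as coupled carriers, which use the gradient of another solute, and they do not split ATP themselves. In colon epithelium such carriers take up nutrients and move salt and acid, and tumour cells depend on them for fuel and for amino acids. Most of the 17 genes belong to families that received their solute carrier numbers late. Their older names, as RefSeq gives them, are mostly MFSD (major facilitator domain) names and PQLC names, and the substrate of many of these proteins is not settled. By substrate class, 1 gene counted as a glucose carrier (SLC60A2), 2 as amino acid carriers (SLC66A1 and SLC38A12), 1 as an ion carrier (SLC61A1) and 2 as mitochondrial carriers (SLC25A2 and SLC25A15). The nucleoside class held 0 genes, and the other 11 were of another kind or had no settled substrate. SLC38A12 was placed by its family name alone.

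The mature microRNA that the labels name is shown beside its closest relative, with the seed (bases 2 to 8, which pairs with target RNAs) in capitals. Both have the same seed. The sequences are those of RefSeq on GRCh38.p14.
hsa-miR-196b-5p, chr7:27169528-27169549, minus strand: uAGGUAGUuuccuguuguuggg
hsa-miR-196a-5p, chr12:53991762-53991783, plus strand: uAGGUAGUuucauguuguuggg
The MIR196B probe set averaged 8.05 ± 0.144 in the labelled arrays and 7.97 ± 0.102 in the empty-vector arrays (log2, SD, n = 3 each). The change of 0.08 had a 95% interval of -0.16 to 0.31 (limma adjusted p = 0.819). MIR196A2, which encodes miR-196a, averaged 10.6 ± 0.149 in the labelled arrays and 3.06 ± 0.167 in the empty-vector arrays (log2, SD, n = 3 each; limma adjusted p = 4.53e-07). The probe set of the gene named in the labels thus did not pass the test while that of its relative did, and the array reads precursors and not mature microRNAs. The groups are therefore called by their labels throughout.

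Across named probe sets, which are no independent replicates, r was 0.992 to 0.994 between arrays of different groups and 0.994 to 0.995 between arrays of the same group. The first principal component (28.9% of the variance) held the labelled arrays at 9.55, 7.38 and 15.8, and the empty-vector arrays at -13.7, -9.29 and -9.77. The groups were thus apart on it. On the second principal component (19.7% of the variance), labelled replicate 1 lay at 18.4 and labelled replicate 3 at -12.9, with the other 4 arrays between -3.49 and -0.03. Of the epithelial markers EPCAM averaged 10.9 in the labelled arrays and 11.0 in the empty-vector arrays, and KRT19 10.1 in both groups (log2). KRT18, KRT8, CDX2 and CDX1 averaged 11.1, 6.63, 5.82 and 5.20 in the labelled arrays. In the empty-vector arrays they averaged 11.3, 6.72, 6.08 and 5.21. The epithelial list had 6 of 8 genes named, of which 2 were lower at an unadjusted p below 0.05, namely KRT18 (log2 change -0.22) and CDX2 (-0.26), and 0 passed after adjustment. Of the fibroblast markers 3 of 7 were named, and 0 passed at the unadjusted threshold. DCN, LUM and THY1 averaged 2.36, 2.18 and 4.85 in the labelled arrays and 2.37, 2.00 and 5.01 in the empty-vector arrays, and LUM was higher in all labelled arrays (log2 change 0.18, limma adjusted p = 0.545). Of the blood cell markers 4 of 8 were named, 2 higher and 2 lower. CSF1R was higher at the unadjusted threshold (log2 change 0.31, limma adjusted p = 0.476). LYZ, CD14 and CD68 had log2 changes of 0.19, -0.01 and -0.20, and their groups overlapped. In the labelled arrays CSF1R, LYZ, CD14 and CD68 averaged 4.31, 3.49, 2.94 and 7.51 (log2). The part of these marker levels in the carrier values was not tested.

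After adjustment 0 of 17 carriers passed the test between the groups (limma, adjusted p below 0.05 over 16098 named probe sets), with adjusted p-values of 0.360 to 0.986. Over all named genes 9 of 14884 passed, or 0.0605%. At an unadjusted p below 0.05, 2 of 17 carriers passed, both higher in the labelled arrays, SLC60A2 and SLC25A2. Over all genes 9.86% passed at that threshold, 5.75% higher and 4.11% lower, so 2 of 17 (11.8%) is near the share of the whole array. The 3 labelled and 3 empty-vector arrays did not overlap for 6 of 17 carriers, 5 higher and 1 lower, where 17.5% of all genes did not overlap (10.3% higher and 7.24% lower). With median centring, SLC71A2 was no longer among the 6, and with a repeated quantile normalization SLC66A3 was no longer among them. With 3 arrays in each group, the smallest p of an exact permutation test is 0.1.

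The changes of the carriers lay on both sides of 0. The log2 change (labelled miR-196b minus empty vector) was above 0 for 8 carriers and below 0 for 9. Its median was -0.01, where the median over all genes was 0.01 and 52.2% of genes were above 0. Leaving out 1 array moved the change of 13 of the 17 by over 1.5 times, the 4 exceptions being SLC60A2, SLC25A2, SLC38A12 and SLC49A4. Without labelled replicate 3 the carriers' median was 0.07 and without empty-vector replicate 2 it was 0.06. The size of the change was at most 0.2 for 15 of 17 carriers (88.2%) and for 81.2% of all genes. The median spread of a carrier within a group was 0.10 (SD, log2), against 0.13 over all genes. The 95% intervals of the 17 changes ran from -0.51 at the lowest bound to 0.53 at the highest. A change larger than 1.42-fold downward or 1.45-fold upward therefore lay outside the interval of every carrier.

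**Figure D1:**
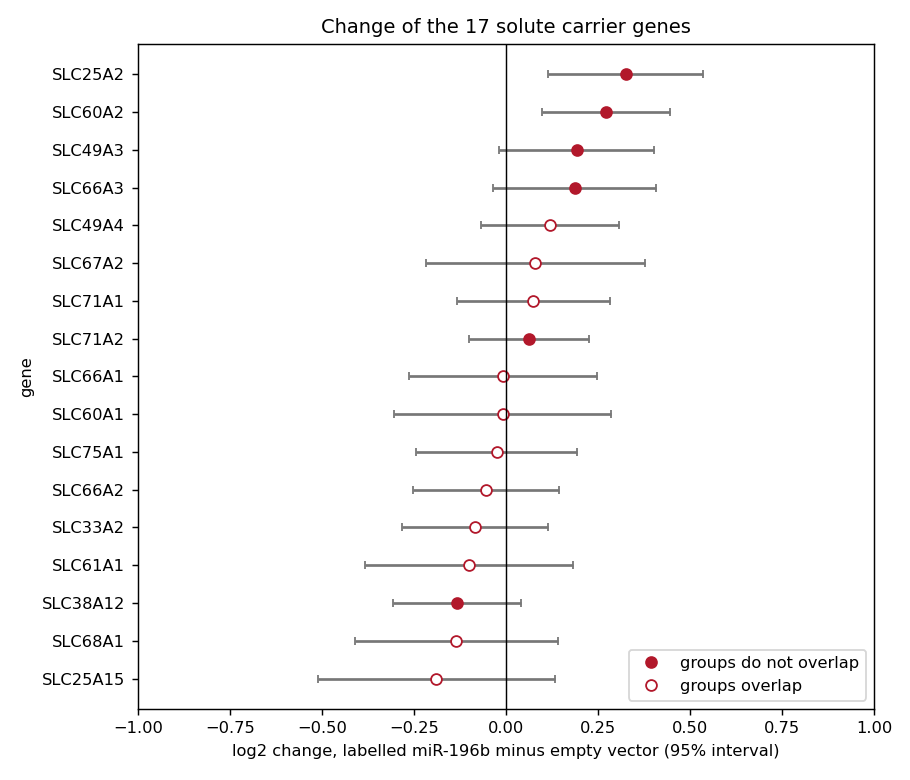
Log2 change of each of the 17 solute carrier genes, labelled miR-196b minus empty vector, on the horizontal axis, with 95% intervals from the limma fit (3 arrays in each group). Filled points mark the 6 genes whose groups did not overlap, and the intervals of SLC25A2 and SLC60A2 lie wholly above 0.

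**Figure D2:**
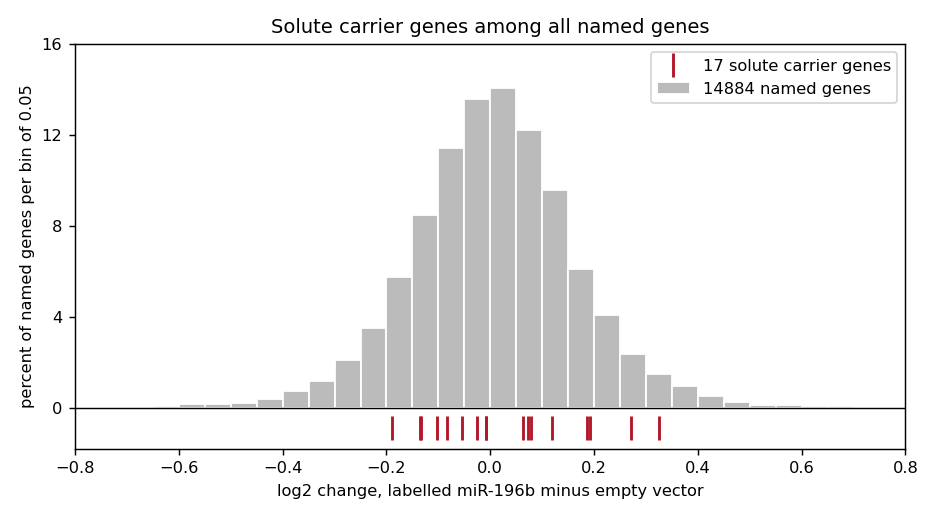
Percent of the 14884 named genes in each bin of log2 change (grey bars) with the 17 solute carrier genes as ticks under the bars. The ticks run from -0.19 to 0.32 around the centre of the distribution, and 9 genes below and 6 genes above the plotted range are not drawn.

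Among the sugar carriers, SLC60A2 was described in the rat as a sodium-dependent glucose transporter of the kidney (NaGLT1). Its probe set 17011721 read 7.78, 7.75 and 7.83 in the labelled arrays, against 7.44, 7.57 and 7.54 in the empty-vector arrays (log2 signal). All labelled arrays lay above all empty-vector arrays, by 0.18 at the closest. The change of 0.27 on the log2 scale (1.21-fold) had an SE of 0.07 and a 95% interval of 0.10 to 0.45 (limma unadjusted p = 0.00752, adjusted p = 0.360). Over the alternatives the change stayed between 0.23 and 0.30 and the adjusted p between 0.120 and 0.617. SLC60A1, of the same family and with no settled substrate, read 5.53, 5.48 and 5.13 in the labelled arrays, against 5.36, 5.51 and 5.27 in the empty-vector arrays. Its groups overlapped, and its change was -0.01 with an interval of -0.30 to 0.29. The nearest coding genes with a symbol here were also read in RefSeq order, and genes without one were skipped, so others may lie between. Beside SLC60A2, RPF2 and AMD1 had log2 changes of -0.21 and 0.02 on one side. On the other side CCN6 and FAM229B had changes of -0.20 and 0.14. None passed after adjustment (limma adjusted p = 0.485 to 0.938). RPF2 was lower in all labelled arrays (limma unadjusted p = 0.0390), and the groups of AMD1, CCN6 and FAM229B overlapped.

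The mitochondrial carriers of the set both exchange ornithine across the inner mitochondrial membrane, a step that links the cytosolic and mitochondrial parts of the urea cycle. SLC25A15 is the main one, and its loss in people causes the HHH syndrome of raised ornithine and ammonia, while SLC25A2 is its intronless relative. SLC25A2 (probe set 17000850) read 4.81, 4.84 and 4.71 in the labelled arrays, against 4.36, 4.602 and 4.43 in the empty-vector arrays (log2 signal). All labelled arrays lay above all empty-vector arrays, by 0.11 at the closest. Its log2 change of 0.32 (SE 0.09, interval 0.11 to 0.53) was the largest of the 17 in size, or 1.25-fold, and did not pass after adjustment (limma unadjusted p = 0.00787, adjusted p = 0.365). This probe set belongs to the dimmest 40% of named probe sets, and its level was not tested against background. SLC25A15 (probe set 16774235) read 7.38, 6.89 and 7.10 in the labelled arrays, against 7.25, 7.22 and 7.47 in the empty-vector arrays. Here labelled replicate 1 lay within the empty-vector range and labelled replicates 2 and 3 below it. Its change of -0.19 on the log2 scale had an interval of -0.51 to 0.13 (limma adjusted p = 0.669), so its sign is not settled. The change was -0.317 without labelled replicate 1, -0.074 without labelled replicate 2 and -0.111 without empty-vector replicate 3. Of the nearest named coding genes in RefSeq order, the protocadherin genes PCDHB15 and PCDHB14 before SLC25A2 had log2 changes of -0.03 and 0.10. After SLC25A2, DIAPH1 and HDAC3 had changes of 0.03 and 0.08. HDAC3 was higher in all labelled arrays (limma adjusted p = 0.729), and the groups of the other named neighbours overlapped.

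SLC66A1 exports lysine, arginine and other cationic amino acids from the lysosome. It read 6.37, 6.55 and 6.27 in the labelled arrays, against 6.24, 6.51 and 6.47 in the empty-vector arrays (log2 signal). The groups overlapped throughout, and the change of -0.01 had an interval of -0.26 to 0.25. SLC38A12, formerly TMEM104, is placed by name in the family of sodium-coupled neutral amino acid transporters. It read 8.18, 8.29 and 8.14 in the labelled arrays, against 8.32, 8.34 and 8.35 in the empty-vector arrays. It was the sole carrier whose labelled arrays all lay below all empty-vector arrays, by 0.02 at the closest. Its change of -0.13 on the log2 scale had an interval of -0.31 to 0.04 (limma adjusted p = 0.590). The ion carrier SLC61A1, which takes up molybdate, the metal of the molybdenum cofactor, read 5.999, 5.88 and 5.73 in the labelled arrays, against 5.77, 5.99 and 6.16 in the empty-vector arrays. Its groups overlapped, with a change of -0.10 and an interval of -0.38 to 0.18. With 1 array left out it ran from -0.203 (without empty-vector replicate 1) to -0.0099 (without empty-vector replicate 3).

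SLC49A4, formerly DIRC2, is a lysosomal membrane protein that carries vitamin B6, and SLC49A3 belongs to the same family as the heme exporter FLVCR1. SLC49A3 read 5.86, 5.88 and 6.11 in the labelled arrays, against 5.72, 5.77 and 5.78 in the empty-vector arrays (log2 signal). The groups did not overlap, and labelled replicate 3 stood above the other labelled arrays. The change of 0.19 on the log2 scale had an interval of -0.02 to 0.40 (limma adjusted p = 0.527), and it was 0.11 without labelled replicate 3, the lowest value with any array left out. SLC49A4 read 8.69, 8.59 and 8.75 in the labelled arrays, against 8.48, 8.62 and 8.58 in the empty-vector arrays. Labelled replicate 2 lay within the empty-vector range and the other labelled arrays above it. Its change was 0.12 with an interval of -0.07 to 0.31.

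Of the other PQLC-named genes, SLC66A3 read 7.46, 7.22 and 7.26 in the labelled arrays, against 7.18, 7.18 and 7.02 in the empty-vector arrays. The groups did not overlap, by a margin of 0.04, and labelled replicate 1 was the highest. The change of 0.19 on the log2 scale had an interval of -0.03 to 0.41 (limma adjusted p = 0.559), and it was 0.114 without labelled replicate 1. SLC66A2 read 6.98, 7.04 and 7.21 in the labelled arrays, against 7.17, 7.10 and 7.13 in the empty-vector arrays. The labelled arrays enclosed the empty-vector arrays, and the change was -0.05 with an interval of -0.25 to 0.14. It was -0.0065 without labelled replicate 1 and -0.121 without labelled replicate 3.

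The paralogs SLC71A1 and SLC71A2, formerly MFSD14A and MFSD14B, are orphan carriers of the major facilitator type. Loss of the first in mice leaves males with round-headed sperm. SLC71A1 read 9.19, 9.03 and 9.09 in the labelled arrays, against 8.90, 9.05 and 9.13 in the empty-vector arrays (log2 signal), and its groups overlapped. SLC71A2 read 10.03, 10.02 and 9.99 in the labelled arrays, against 9.89, 9.98 and 9.98 in the empty-vector arrays. The SLC71A2 groups were apart by 0.01, less than the spread within either group. The log2 changes were 0.07 for SLC71A1 (interval -0.13 to 0.28) and 0.06 for SLC71A2 (interval -0.10 to 0.23). Without empty-vector replicate 1 they were 0.011 and 0.032, and without empty-vector replicate 3 that of SLC71A1 was 0.123.

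The remaining carriers all had overlapping groups. SLC68A1, formerly TMEM180 and studied as a surface antigen of colorectal tumours, read 7.41, 7.54 and 7.17 in the labelled arrays, against 7.52, 7.37 and 7.63 in the empty-vector arrays. Its change of -0.14 on the log2 scale had an interval of -0.41 to 0.14 (limma adjusted p = 0.729). With 1 array left out it ran from -0.218 (without labelled replicate 2) to -0.034 (without labelled replicate 3). SLC33A2, related to the acetyl-CoA carrier of the endoplasmic reticulum, had a change of -0.08, with 7.48 to 7.59 in the labelled arrays and 7.48 to 7.68 in the empty-vector arrays. The SLC33A2 change was -0.048 without empty-vector replicate 2 and -0.149 without empty-vector replicate 3. SLC75A1, which as TETRAN was described as an organic anion efflux carrier, had a change of -0.03, with 8.49 to 8.59 in the labelled arrays and 8.46 to 8.73 in the empty-vector arrays. The orphan carrier SLC67A2 read 6.599, 6.59 and 6.20 in the labelled arrays, against 6.27, 6.39 and 6.48 in the empty-vector arrays. Labelled replicate 3 was below all empty-vector arrays here while the other labelled arrays were above them. The SLC67A2 change was 0.08 over all arrays, 0.212 without labelled replicate 3, 0.010 without labelled replicate 1, 0.015 without labelled replicate 2 and 0.025 without empty-vector replicate 1. By class, the median log2 change was 0.06 over the 11 carriers of another or no settled substrate, with 6 higher and 5 lower, and it was 0.01 without labelled replicate 1.

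**Figure D3:**
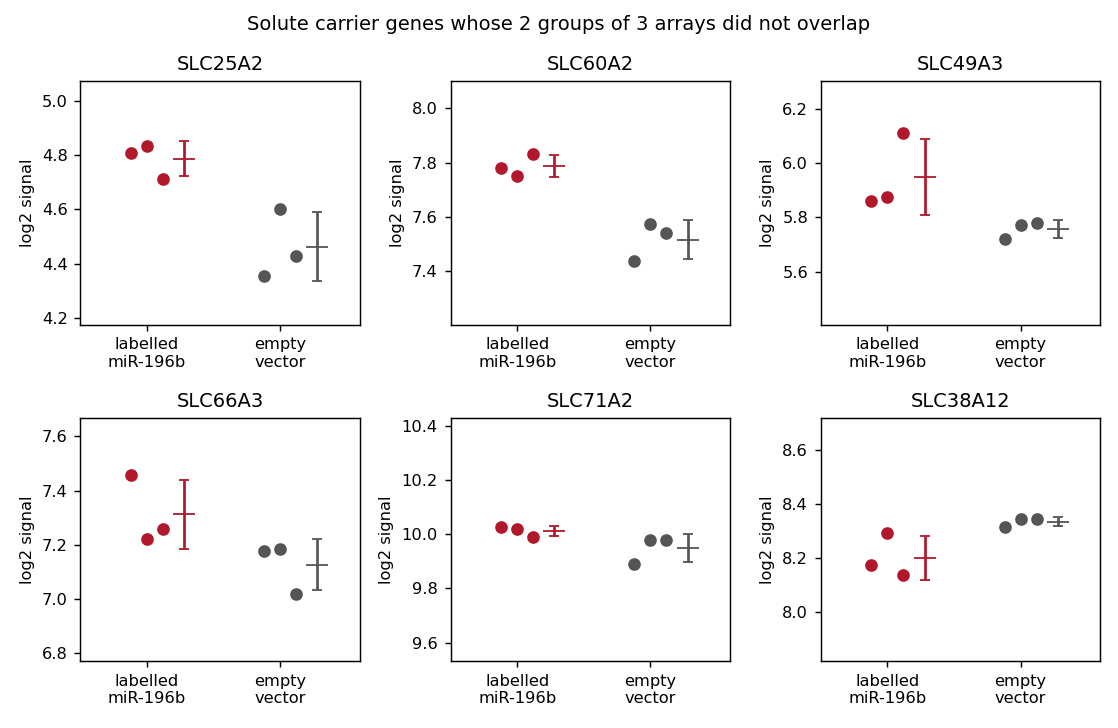
Log2 signal of the 6 solute carrier genes whose groups did not overlap, with 1 point per array (replicates 1 to 3 from left to right) and the mean with SD beside the points. Each panel spans the same height of 0.9 log2 units, and SLC38A12 alone is lower in the arrays labelled miR-196b.

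Members of the same family can be set against each other array by array, as the difference of their log2 signals, with the gene of larger change first. This order makes the mean difference higher in the labelled arrays for every pair, so its direction is no result. In this difference a shift shared by both genes on an array drops out. The 17 carriers make 7 such pairs. For SLC25A2 minus SLC25A15 the difference was -2.57, -2.06 and -2.38 in the labelled arrays, against -2.89, -2.62 and -3.04 in the empty-vector arrays. The difference was higher in all labelled arrays than in any empty-vector array, by 0.51 on average (exact two-sided permutation p = 0.1, the smallest possible, and 0.42 after Benjamini-Hochberg adjustment over the 7 pairs). The test concerns the difference and not the sign of either change, and with this number of arrays it cannot pass 0.05. The other 6 pairs overlapped between the groups. For SLC60A2 minus SLC60A1 the difference was higher by 0.28 (exact p = 0.2), with 2.25, 2.28 and 2.71 in the labelled arrays, against 2.07, 2.06 and 2.26 in the empty-vector arrays. For SLC71A1 minus SLC71A2 it was higher by 0.01 (exact p = 0.8), and over the remaining 4 pairs, of the SLC49 and SLC66 families, by 0.05 to 0.24.

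**Figure D4:**
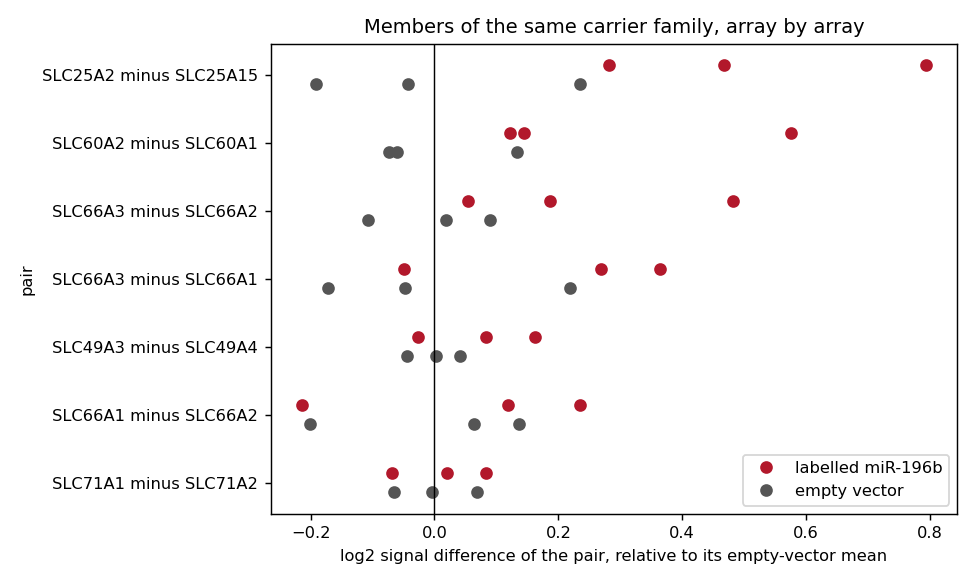
Difference in log2 signal between 2 members of a carrier family on each array, relative to the empty-vector mean of that pair, with arrays labelled miR-196b above empty-vector arrays in each row. The gene of larger change comes first, so the labelled mean lies to the right in every row by construction. The 3 labelled arrays of SLC25A2 minus SLC25A15 lie to the right of all empty-vector arrays, and the groups overlap in the other 6 rows.

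Within a group no array was low or high for all carriers. Labelled replicate 1 was the highest of its group for 9 of 17 carriers, and labelled replicate 3 the lowest for 8. Among the empty-vector arrays, replicate 1 was the lowest for 10 of 17 and replicate 2 the highest for 8. The median deviation of the carriers from their group's mean was 0.04, -0.04 and -0.03 in labelled replicates 1 to 3, against -0.06, 0.03 and 0.02 in empty-vector replicates 1 to 3 (log2). Over all genes these medians were between -0.01 and 0.01.

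Promoters were compared because they give a sequence feature that the choice of genes did not use. RefSeq promoter windows (GRCh38.p14, 250 bases before to 50 after the gene start) matched 14 of the 17 carriers. Their GC content had a median of 71.8%, with a range of 58.7% to 83.3%, where the median over the windows of 10749 named genes was 63.3%. The GC box GGGCGG, searched on both strands, was in 13 of 14 carrier windows and in 60.5% of the named genes' windows, and SLC60A2 was the 1 carrier window without it. The E-box CACGTG was in the windows of SLC60A2 and SLC61A1, or 2 of 14, and in 9.02% of the named genes' windows. The CCAAT motif, on both strands, was in 3 of 14 and in 36.0%. TATAAA and the AP-1 motif TGACTCA, on both strands, were each in 0 of 14, and in 8.49% and 3.85% of the named genes' windows. Matches to GGGCGG overlap one another in the window of SLC66A3, which held 14. Shown are 3 carriers whose groups did not overlap, a pair with higher signal in the labelled arrays (SLC60A2 and SLC66A3) and the carrier with lower signal (SLC38A12), written 5′ to 3′ with matches to these motifs in capitals. A match describes the sequence and is not a shown binding site, and the array's own probe positions were not used.
SLC60A2 promoter, chr6:111259089-111259388, plus strand: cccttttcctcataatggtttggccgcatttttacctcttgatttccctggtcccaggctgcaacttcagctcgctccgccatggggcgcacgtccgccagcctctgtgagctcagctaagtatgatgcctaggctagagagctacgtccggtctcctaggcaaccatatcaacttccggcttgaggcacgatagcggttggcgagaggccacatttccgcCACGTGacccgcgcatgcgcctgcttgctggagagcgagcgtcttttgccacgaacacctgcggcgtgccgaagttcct
SLC66A3 promoter, chr2:11155217-11155516, plus strand: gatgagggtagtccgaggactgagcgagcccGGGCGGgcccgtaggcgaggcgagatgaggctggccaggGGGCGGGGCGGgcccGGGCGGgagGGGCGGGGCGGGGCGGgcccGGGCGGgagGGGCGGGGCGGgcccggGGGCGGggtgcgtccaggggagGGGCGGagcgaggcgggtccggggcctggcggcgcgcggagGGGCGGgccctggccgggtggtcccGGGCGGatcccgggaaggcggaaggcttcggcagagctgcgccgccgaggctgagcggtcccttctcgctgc
SLC38A12 promoter, chr17:74776249-74776548, plus strand: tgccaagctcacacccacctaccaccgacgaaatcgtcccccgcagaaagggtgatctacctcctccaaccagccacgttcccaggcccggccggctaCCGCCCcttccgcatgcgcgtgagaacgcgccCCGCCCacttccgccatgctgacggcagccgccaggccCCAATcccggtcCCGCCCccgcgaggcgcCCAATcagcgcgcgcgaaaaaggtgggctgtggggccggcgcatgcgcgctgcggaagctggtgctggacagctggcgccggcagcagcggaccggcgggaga
The windows differ in composition: that of SLC60A2 has the lowest GC content of the 14 (58.7%) with an E-box and no GC box, that of SLC66A3 has repeated GC boxes, and that of SLC38A12 has both GC boxes and CCAAT motifs.

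Related transport genes that the name pattern does not take were read from the same fit. Of 52 listed carriers with other symbols 6 were named, 1 higher and 5 lower, and 0 passed at an unadjusted p below 0.05. They include MPC1 and MPC2, which form the mitochondrial pyruvate carrier. MPC2 read 7.98, 8.27 and 8.15 in the labelled arrays, against 8.31, 8.36 and 8.30 in the empty-vector arrays. All labelled arrays were lower, with a log2 change of -0.19 (limma adjusted p = 0.532), while MPC1 overlapped with a change of -0.16. SLC51A and SLC51B, the subunits of the bile acid exporter of the basolateral membrane, had changes of -0.18 and -0.14. In all, 5 coding genes had SLC symbols outside the pattern, and 0 of 5 passed at the unadjusted threshold. Of the 6 genes that still carry an MFSD symbol 0 passed, with 5 higher and 1 lower.

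Among chaperones, pumps and regulators of carriers, 8 of 19 genes were named, 5 higher and 3 lower, and 1 passed at the unadjusted threshold. This was ARRDC4, an arrestin-like protein that, like its relative TXNIP, lowers glucose uptake. ARRDC4 read 7.22, 7.23 and 7.33 in the labelled arrays, against 6.90, 6.88 and 6.87 in the empty-vector arrays. The groups were apart, with a log2 change of 0.38 (SE 0.07), which did not pass after adjustment (limma adjusted p = 0.270). TXNIP had a change of -0.17 and overlapping groups. BSG, the chaperone of lactate carriers, had a change of 0.12, and OXSR1 of 0.17. Both were higher in all labelled arrays (limma adjusted p = 0.611 and 0.576). With ARRDC4, groups were apart for 3 of the 8 genes, all higher, where 10.3% of all genes were apart and higher.

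Of the genes that respond to or sense amino acids, 20 of 26 were named, 10 higher and 10 lower, and the median log2 change was 0.01. At the unadjusted threshold DDIT4, an inhibitor of mTORC1, was higher (0.57) and LAMTOR5, a subunit of the lysosomal scaffold of mTORC1, lower (-0.23), and neither passed after adjustment (limma adjusted p = 0.407 for both). ATF4, which drives many amino acid carriers, had a change of 0.05 and its target ASNS of -0.01. Of the glycolysis genes, 9 of 18 were named, 7 higher and 2 lower. The hexokinases had changes of opposite sign, with HK1 at 0.23 and HK2 at -0.20 (limma adjusted p = 0.504 and 0.471), and in both genes the groups did not overlap. For HK1 the margin was small, with 7.37 as the lowest labelled and 7.36 as the highest empty-vector value. At the unadjusted threshold 1 gene of the list passed, HK2. Over all genes 9.86% passed at that threshold. Groups were apart for 3 higher genes of the list, HK1, GPI and PGK1, and 1 lower, HK2. Over all genes 10.3% were apart and higher and 7.24% apart and lower. GPI and PGK1 had log2 changes of 0.09 and 0.12 (limma adjusted p = 0.709 and 0.607). LDHA, which makes lactate, had a change of 0.02.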

How the data were processed

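Expression was read in 6 arrays, 3 labelled miR-196b and 3 with the empty vector. The authors deposited log2 values. The submitters' processing notes name RMA and Partek 6.6 without order or options, and RMA corrects background and makes the arrays' distributions alike, which removes any difference in overall level. The build is not given in the sources used here, and no scanner file or scan date was used, so neither the background correction nor a batch was tested. Base 2 was taken because RMA gives log2 values. Gene names came from the platform annotation. Of 53617 probe sets 16098 had 1 symbol, 0 had several and 37519 had none here. RefSeq tables (GRCh38.p14) gave older names, gene order and printed sequences.

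The log2 values of all 16098 named probe sets were fitted in R 4.3.3 with limma 3.58.1 (lmFit and eBayes, no trend, 4 residual and 3.23 prior degrees of freedom), with Benjamini-Hochberg adjustment at 0.05. Counts over all genes used the brightest probe set of each. Arrays of the same number did not deviate together (r = 0.03, 0.04 and 0.01), so no pairing was used. On simulated data with 16098 genes the fit recovered 4% of 50 genes planted at a log2 change of 0.32, 40% at 0.58 and 84% at 1. The noise was normal with each probe set's own estimated SD, and changes were planted in random probe sets. Recovery was thus not measured for the carriers themselves.

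The genes and lists were chosen with earlier results of these data known. The naming rule took called carriers, the largest changes, the smallest p-values and brightest genes per class and textbook carriers. Here all 17 were described. Substrate classes not given by the family were assigned after the gene names were seen, as were the lists of other SLC and MFSD symbols. The family pairs, neighbouring named genes, motifs, printed promoters and the alternatives for the groups-apart count were chosen after the values were seen. Neighbours were given for both carriers that passed at an unadjusted p below 0.05. The alternatives were a filter on dim probe sets, a trended robust prior, median centring, repeated quantile normalization, all probe sets, gene means, a replicate block and each array left out. Pairs were tested by exact permutation.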

Additional observations from a re-analysis of the deposited data

How the results depend on the processing

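Under all 13 alternatives 0 of the 17 carriers were called (lowest adjusted p 0.120, SLC60A2 with a trended robust prior), and 2 to 3 passed at an unadjusted p below 0.05. The dim filter left out SLC25A2, so the 2 carriers that passed the unadjusted threshold under it include another carrier. The share of all genes at an unadjusted p below 0.05 ran from 6.92% with all probe sets tested to 14.6% without the dimmest 40%. With the replicate number as a block, 0 were called, SLC60A2 had an adjusted p of 0.488 and SLC25A2 of 0.487. The count with groups apart, whose alternatives were chosen after seeing the data, was 6, 5 under each of the dim filter, median centring and repeated quantile normalization, and 7 to 8 with an array left out. The dim filter took SLC25A2 out of that count. Groups with fewer arrays lie apart more easily for any gene, so the counts with an array left out cannot be set against 6. Over all genes 17.5% were apart with all arrays, and that share is not given here for the alternatives. The carriers' median log2 change was -0.0066 to 0.072 with an array left out, that of amino acid carriers -0.13 to -0.02, that of mitochondrial carriers -0.0022 to 0.11, and that of the 11 others 0.0102 to 0.079. Without the dimmest 40% of probe sets the mitochondrial median was -0.19, because SLC25A2 was left out and SLC25A15 alone remained. Of the 17 carriers 14 kept their sign under the alternatives that gave them a value. The other 3, all near 0, turned sign with an array left out: SLC75A1 (-0.075 to 0.058), SLC66A1 (-0.092 to 0.056) and SLC60A1 (-0.084 to 0.116). Over all genes, in place of 9, the count called was 21 without the dimmest 40%, 87 with the trended robust prior, 2 with all probe sets tested, 1 with the replicate block and 2 to 3 with an array left out. The probe set of SLC25A2 is dim, and no level was tested against background.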
